A study of Mus musculus with 6 samples.

Results

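Genes of cholesterol and fatty acid synthesis were examined in ureteric bud cells of E15.5 mouse kidneys, as a set of 32 genes chosen by name. They comprised 18 enzymes of sterol synthesis, 6 genes of sterol control (the SREBP transcription factors Srebf1 and Srebf2, their escort Scap, their retention factors Insig1 and Insig2, and the sterol transfer protein Stard4), and 8 enzymes of fatty acid synthesis. Of the 32, 31 had a probe set assigned to them alone, out of 19296 genes in all. Acat2, the cytosolic thiolase that starts the sterol pathway, had none and was not analysed here.

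RNA from 3 Dicer mutant and 3 control samples was hybridised, 1 array per sample, to Affymetrix whole-transcript arrays. The mutant genotype was Dicerc/-; Hoxb7Cre; Rosa26YFP. One Dicer allele was conditional and the other was null in all cells. Hoxb7Cre deletes in the ureteric bud lineage, and Rosa26YFP lights up the cells in which Cre has acted. The control genotype was given only as wild type, although YFP-positive cells were sorted from both groups after trypsin, and whether the control embryos carried the same transgenes was not stated. Both groups had a mixed strain background, and the labels call the samples biological replicates without saying whether each came from 1 embryo or several. The tests therefore rest on sample-to-sample spread alone.

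Cholesterol is made in the endoplasmic reticulum from acetyl-CoA through mevalonate, squalene and lanosterol. The pathway's enzymes are classical targets of SREBP2, while SREBP1 mainly drives fatty acid synthesis. When sterols are scarce, Scap carries the SREBPs to the Golgi, where they are cleaved and released to the nucleus. When sterols are plentiful, the Insig proteins hold Scap back. In embryonic epithelia the pathway supplies membranes, and cholesterol is also needed for Hedgehog signalling. Dicer makes mature microRNAs from precursor hairpins.

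Dicer1 itself stood at 9.80, 9.72 and 9.64 on the log2 scale in the mutant arrays, against 10.31, 10.38 and 10.25 in the control arrays (log2 fold change -0.59, standard error 0.06, limma adjusted p = 0.0005). All 12 ureteric bud markers lay above 7.51, the median of all values, which is used here as the line between bright and dim genes. Of the 12, 1 passed as higher and 6 as lower. The summed linear signal of these 12 was 42228.4 to 43185.9 in mutant arrays and 47253.8 to 48343.8 in control arrays. Of 43 measured markers of 8 other cell types, 37 lay below the median, 2 passed as higher and 7 as lower. The 6 cap mesenchyme markers summed to 1994.3 to 2118.7 in mutant arrays and 914.5 to 992.5 in control arrays, a difference that came from Six2. Without Six2 the other 5 summed to 725.5 to 766.3 in mutant arrays and 758.5 to 865.1 in control arrays. Six2 passed as higher, Osr1 passed as lower, and 4 of the 6 had a negative log2 fold change. The part of these markers in the lipid results was not tested. In such bulk RNA, fewer cells of a type and less RNA per cell cannot be told apart.

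The 31 genes did not move as a block. In Dicer mutant cells 7 rose (Cyp51, Dhcr7, Sc5d, Stard4, Acaca, Fasn and Scd1), 3 fell (Mvk, Pmvk and Tm7sf2) and 21 did not pass an adjusted p of 0.05. A single gene, the fatty acid desaturase Scd1, changed more than 2-fold, while each of the other 30 changed by 1.32-fold or less. Across all genes, 25.8% passed in either direction (11.8% higher and 13.9% lower), and among genes above the median, where all 31 lie, 39.6% passed (19.3% higher and 20.3% lower). Of the 31, 22.6% were higher and 9.68% lower, and the 32.3% that passed in either direction lay between the shares of all genes and of genes above the median. Small upward values were common: 23 of 31 (74.2%) had a positive log2 fold change, against 47.8% of all genes above the median and 38.3% of all genes. Idi1 counts as positive here by its brighter probe set, although its other probe set gave -0.36. The median was 0.07 over the 31 genes, -0.01 over all genes above the median and -0.05 over all genes.

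**Figure D1:**
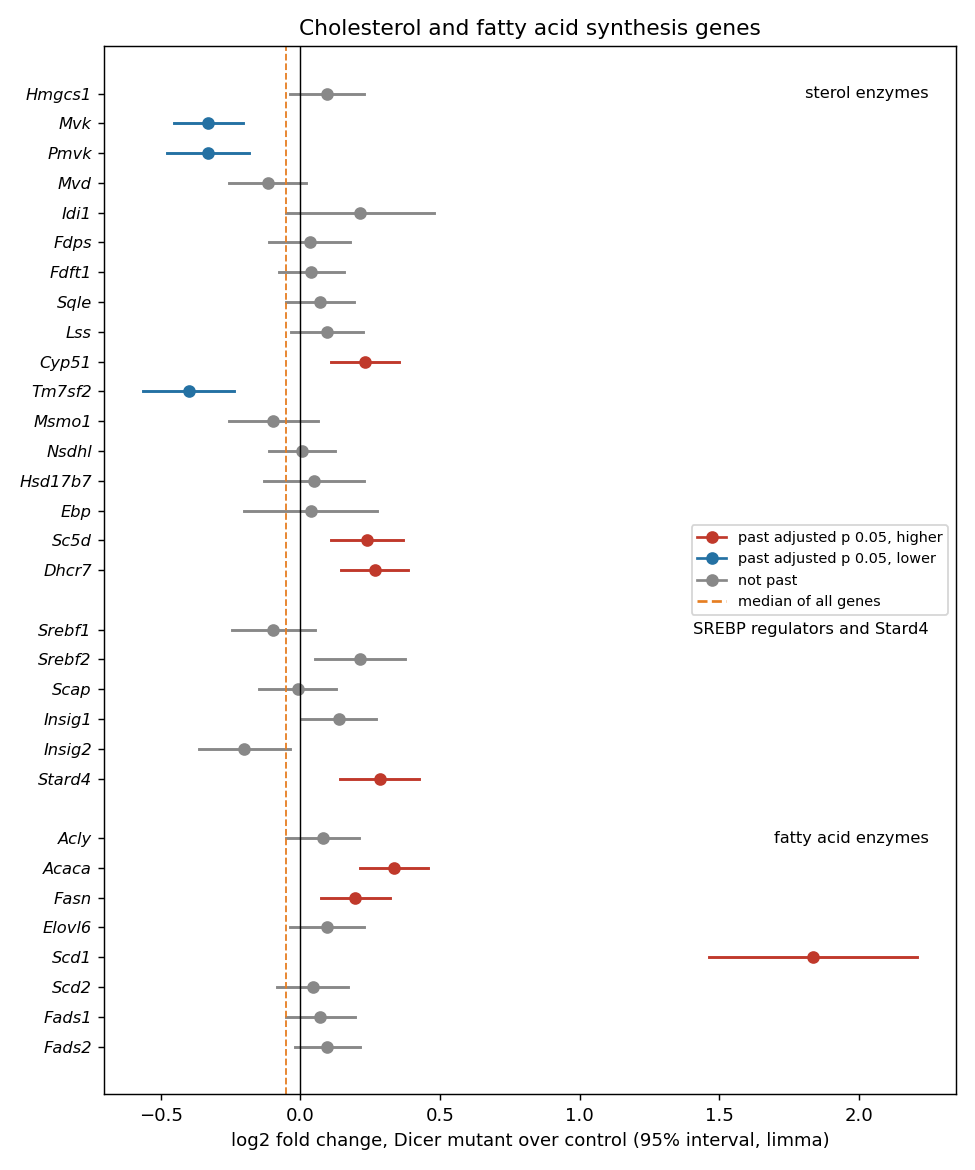
Log2 fold change of the 31 measured genes, Dicer mutant over control, with the 95% interval from limma (3 arrays per group); colour marks genes past an adjusted p of 0.05 and the dashed line is the median of all genes, -0.05. Scd1 stands alone at 1.84, and all other genes lie between -0.40 and 0.33.

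The groups' arrays did not overlap for 16 genes that were higher and 5 that were lower in mutant cells. Idi1 is among the 16 by its brighter probe set, while its other probe set was separate in the opposite direction. The share of non-overlapping genes was 51.6% higher and 16.1% lower among the 31. Over all genes it was 18.3% higher and 24.1% lower, and over genes above the median 30.2% and 32.1%.

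Of 17 sterol enzymes, 3 rose, 3 fell and 11 did not pass. That is 17.6% in each direction, close to the 19.3% higher and 20.3% lower of all genes above the median. The median log2 fold change was 0.04, and it was 0.07 without control replicate 2, 0.07 with median centring and 0.02 with array weights. Mvk, Pmvk and Tm7sf2 were lower, and Cyp51, Sc5d and Dhcr7 were higher. Without mutant replicate 1 or without mutant replicate 3, only 1 of the 3 higher enzymes (Dhcr7) still passed, whereas 3 lower enzymes passed in every fit with 1 array left out.

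Hmgcs1, the synthase that makes HMG-CoA, opens the measured part of the route. Its values were 11.12, 11.12 and 11.21 in mutant arrays and 11.01, 11.04 and 11.10 in control arrays. The groups did not overlap, yet the log2 fold change of 0.10 (95% interval -0.04 to 0.23) did not pass (adjusted p = 0.264).

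Mevalonate kinase, Mvk, which adds the first phosphate to mevalonate, fell. It measured 8.72, 8.78 and 8.72 in mutant arrays, against 9.10, 9.03 and 9.08 in control arrays. Every mutant array lay below every control array, and the difference came to -0.33 ± 0.05 SE on the log2 scale (adjusted p = 0.00313). Pmvk, the phosphomevalonate kinase of the next step, fell by the same amount. It had 7.83, 7.86 and 7.72 in mutant arrays, against 8.18, 8.17 and 8.06 in control arrays (log2 fold change -0.33 ± 0.06 SE, adjusted p = 0.00683). Mvd, the decarboxylase that follows, was 8.68, 8.78 and 8.63 in mutant arrays and 8.81, 8.80 and 8.83 in control arrays. These did not overlap either, but the log2 fold change of -0.12 (95% interval -0.25 to 0.02) did not pass (adjusted p = 0.194).

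Idi1, the isomerase that yields the allylic building block, could not be given a direction, because its 2 probe sets opposed each other. The brighter one (10482762) had 9.74, 9.69 and 9.75 in mutant arrays and 9.22, 9.67 and 9.65 in control arrays, a log2 fold change of 0.21 (adjusted p = 0.221). The other (10403413) had 9.08, 9.28 and 9.25 in mutant arrays and 9.78, 9.52 and 9.40 in control arrays, a log2 fold change of -0.36 (adjusted p = 0.0378 among all 1-symbol probe sets). Control replicate 1 was the lowest control array on the first and the highest on the second. The annotation lists the same transcripts for both, so which one reports Idi1 was not settled.

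Fdps, which joins the isoprene units into farnesyl diphosphate, and Fdft1, which commits farnesyl diphosphate to squalene, scarcely differed, at 0.03 and 0.04 on the log2 scale, neither of them past the threshold. A second Fdft1 probe set gave 0.04 as well. Sqle, the squalene epoxidase, measured 10.41, 10.49 and 10.45 in mutant arrays and 10.39, 10.40 and 10.35 in control arrays (log2 fold change 0.07, adjusted p = 0.377). Lss, which closes the rings to form lanosterol, was 8.96, 8.97 and 8.96 in mutant arrays and 8.86, 8.80 and 8.93 in control arrays (0.10, adjusted p = 0.256). For Sqle and Lss the groups were separate but close. The upper ends of the 95% intervals of these 4 genes were 0.15 to 0.22, so a rise of more than 0.22 lay outside them.

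Cyp51, the lanosterol demethylase, rose. It had 9.70, 9.64 and 9.71 in mutant arrays, against 9.43, 9.48 and 9.44 in control arrays (log2 fold change 0.23 ± 0.05 SE, adjusted p = 0.0145). Tm7sf2, the sterol C14 reductase that acts directly after it, went the other way. Its values were 7.97, 8.07 and 8.06 in mutant arrays and 8.38, 8.56 and 8.37 in control arrays. That was the largest fall of the 31 genes, with a log2 fold change of -0.40 ± 0.07 SE, or 75.8% of the control signal (adjusted p = 0.00463). The groups of both genes were fully separate.

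The enzymes that strip the C4 methyl groups, Msmo1, Nsdhl and Hsd17b7, lay at -0.10, 0.01 and 0.05 on the log2 scale. Their groups overlapped and 0 of the 3 passed. Ebp, the sterol isomerase, had 8.20, 8.21 and 8.24 in mutant arrays and 7.93, 8.29 and 8.32 in control arrays. Control replicate 1 lay far below the other two there, as it did on the brighter Idi1 probe set. Without that array Ebp's log2 fold change was -0.09, compared with 0.04 over all 6 arrays.

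The last 2 enzymes both rose. Sc5d, the sterol C5 desaturase, measured 9.78, 9.74 and 9.81 in mutant arrays, against 9.49, 9.53 and 9.60 in control arrays (log2 fold change 0.24 ± 0.06 SE, adjusted p = 0.0163). Dhcr7, which performs the final reduction of 7-dehydrocholesterol, measured 9.38, 9.44 and 9.40 in mutant arrays, against 9.12, 9.13 and 9.17 in control arrays (0.27 ± 0.05 SE, adjusted p = 0.00727). No arrays of the groups overlapped for either gene. Cyp51 and Sc5d no longer passed without mutant replicate 1 (adjusted p = 0.0647 and 0.0636) or without mutant replicate 3 (0.0556 and 0.0615).

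**Figure D2:**
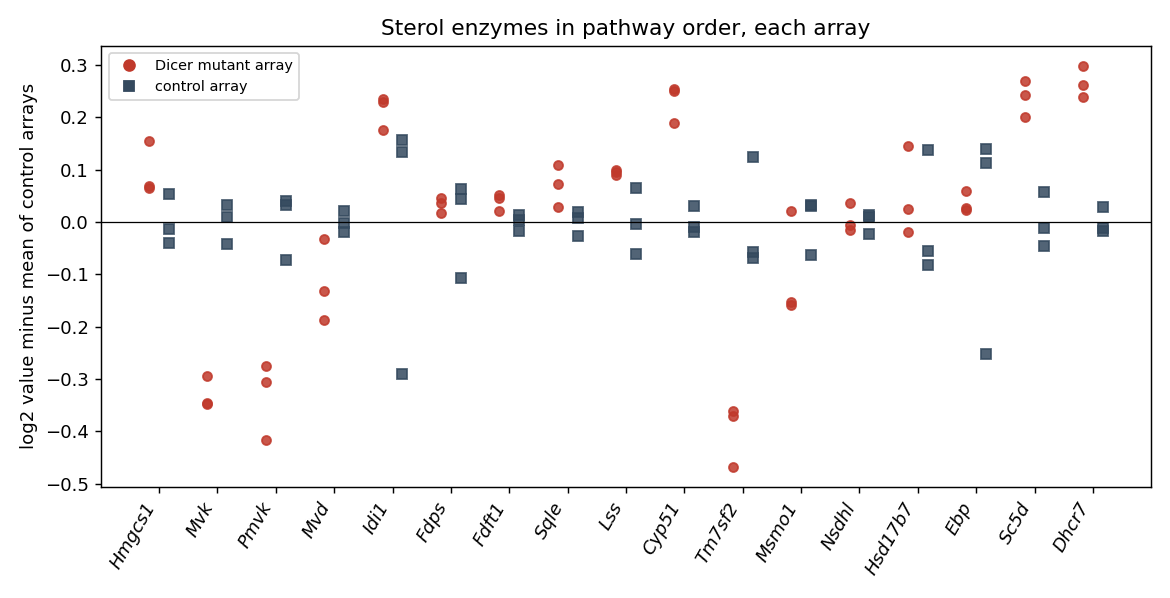
Log2 values of the 17 sterol enzymes in pathway order, each minus the mean of its control arrays; circles are the 3 Dicer mutant arrays and squares the 3 control arrays. Mvk, Pmvk and Tm7sf2 lie below their control arrays and Cyp51, Sc5d and Dhcr7 above them, while control replicate 1 is the low square of Idi1 and Ebp.

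Promoter sequences of RefSeq (build GRCm38.p6, 250 bases before to 50 after a start site) were available for 24 of the 31 genes. Fads1, Fdft1, Fdps, Scd1, Scd2, Sqle and Stard4 had no window, so the counts below do not cover them. The classical sterol response element, searched letter for letter, was in the windows of 0 of the 24 genes on either strand, against 0.0999% of all 27025 genes with a window. The looser TCACNCCAC was in 1 (Hmgcs1), against 1.44%. The core TCACCCCA, part of which overlaps the looser form and which was chosen after the windows had been seen, was in Hmgcs1 and Srebf2, against 1.77%. The E-box CACGTG was in 5 of 24, against 8.09% of all genes and 12.5% of those above the median signal. The CCAAT box, letters CCAAT or ATTGG, was in 20 of 24 genes, against 41.1% of all genes with a window and 43.3% of those above the median signal. By group it was in 14 of 14 sterol enzymes, 4 of 5 control genes and 2 of 5 fatty acid enzymes with a window. It is the site of NF-Y, a factor known to work beside SREBPs. The windows below are those with the core, then 2 enzymes that rose and 1 that fell, read 5′ to 3′ on the gene's strand, and capitals mark TCACCCCA with any extension to the looser element, and each CCAAT or ATTGG.
Hmgcs1, chr13:119690101-119690400, plus strand: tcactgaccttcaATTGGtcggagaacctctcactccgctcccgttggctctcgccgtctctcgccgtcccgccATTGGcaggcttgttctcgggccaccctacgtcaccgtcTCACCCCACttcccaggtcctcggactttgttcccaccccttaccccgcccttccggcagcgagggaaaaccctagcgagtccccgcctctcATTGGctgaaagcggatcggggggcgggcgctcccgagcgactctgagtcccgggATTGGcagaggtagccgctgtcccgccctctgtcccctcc
Srebf2, chr15:82147019-82147318, plus strand: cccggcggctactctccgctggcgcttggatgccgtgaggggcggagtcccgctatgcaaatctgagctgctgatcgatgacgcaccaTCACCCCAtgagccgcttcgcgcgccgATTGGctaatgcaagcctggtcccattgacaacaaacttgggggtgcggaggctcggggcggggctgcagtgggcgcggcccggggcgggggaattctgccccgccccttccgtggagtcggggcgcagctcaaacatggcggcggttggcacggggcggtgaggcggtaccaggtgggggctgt
Cyp51, chr5:4104648-4104947, minus strand: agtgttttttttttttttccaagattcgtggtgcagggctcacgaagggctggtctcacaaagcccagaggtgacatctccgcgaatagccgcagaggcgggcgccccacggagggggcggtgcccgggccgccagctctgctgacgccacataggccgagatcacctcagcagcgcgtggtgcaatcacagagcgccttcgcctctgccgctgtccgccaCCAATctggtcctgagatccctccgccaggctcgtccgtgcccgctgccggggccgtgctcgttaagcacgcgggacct
Sc5d, chr9:42264251-42264550, minus strand: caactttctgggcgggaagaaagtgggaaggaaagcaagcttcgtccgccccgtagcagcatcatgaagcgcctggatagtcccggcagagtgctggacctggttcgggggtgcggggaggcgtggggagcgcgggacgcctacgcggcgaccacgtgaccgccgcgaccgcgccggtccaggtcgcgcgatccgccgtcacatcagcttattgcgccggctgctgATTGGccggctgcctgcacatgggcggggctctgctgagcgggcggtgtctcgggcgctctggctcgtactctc
Mvk, chr5:114444019-114444318, plus strand: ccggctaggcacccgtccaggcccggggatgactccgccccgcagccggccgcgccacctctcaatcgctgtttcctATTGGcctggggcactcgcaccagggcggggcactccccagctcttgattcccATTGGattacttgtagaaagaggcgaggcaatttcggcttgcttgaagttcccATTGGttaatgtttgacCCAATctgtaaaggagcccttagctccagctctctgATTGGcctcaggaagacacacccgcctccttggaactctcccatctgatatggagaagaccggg
Mvk held 5 CCAAT boxes, and the other enzymes that fell, Pmvk and Tm7sf2, held 1 each. Of those that rose, Cyp51 and Sc5d held 1 each and Dhcr7 held 2 in 1 of its 3 windows. Hmgcs1 and Srebf2, the genes with the core, held 4 and 1 and did not pass the threshold. These letter matches are descriptions and do not show that a factor bound there.

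Among the 6 genes of sterol control, Stard4 rose and the SREBP, Scap and Insig genes did not pass. That is 16.7% higher and 0% lower, against 19.3% and 20.3% of all genes above the median. The median log2 fold change was 0.06, against -0.01 over all genes above the median. Stard4, which carries cholesterol between membranes and is a known sterol-regulated gene, had 9.68, 9.73 and 9.69 in mutant arrays, against 9.50, 9.42 and 9.33 in control arrays. The groups did not overlap (log2 fold change 0.28 ± 0.06 SE, adjusted p = 0.0116).

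Srebf2, the transcription factor of the sterol pathway, lay just short of the threshold, and passed as higher in 4 of 15 alternative settings. It measured 10.68, 10.79 and 10.62 in mutant arrays and 10.40, 10.56 and 10.48 in control arrays, a log2 fold change of 0.21 (95% interval 0.05 to 0.38, adjusted p = 0.0582). Srebf1, which turns on fatty acid genes, was 9.17, 9.24 and 9.05 in mutant arrays and 9.27, 9.21 and 9.27 in control arrays (-0.10, adjusted p = 0.315). The arrays separated for Srebf2 and overlapped for Srebf1. The difference Srebf2 minus Srebf1 was 0.31 higher in mutant cells on the log2 scale, a description of a pair picked after the values were seen, as are the other differences between 2 genes given here.

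The Insig genes pointed in opposite directions without passing. Insig1, itself an SREBP target, had 9.924, 9.998 and 9.993 in mutant arrays and 9.763, 9.865 and 9.871 in control arrays (0.14, adjusted p = 0.122). Insig2 had 9.12, 9.19 and 9.07 in mutant arrays and 9.30, 9.44 and 9.23 in control arrays (-0.20, adjusted p = 0.0746), and without control replicate 3 it passed as lower (adjusted p = 0.0462). Neither gene's groups overlapped, and Insig1 minus Insig2 was 0.34 higher in mutant cells. Scap, the escort protein, had a log2 fold change of -0.01 (95% interval -0.15 to 0.13).

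All 6 control genes were highest in mutant replicate 2 among the mutant arrays. That array was also the highest mutant array for 5 of 8 fatty acid enzymes and 9 of 17 sterol enzymes. It was the highest for 8537 of 19296 genes overall. Among the control arrays, replicate 1 was the lowest for 9 of 17 sterol enzymes and for 5431 of 19296 genes.

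Fatty acid enzymes all had positive log2 fold changes in mutant cells, of which 3 of 8 passed (Scd1, Acaca and Fasn) and 5 did not. The share that passed in either direction, 37.5%, was close to the 39.6% of genes above the median, against 25.8% of all genes. By direction it was 37.5% higher and 0% lower, against 19.3% and 20.3% of genes above the median. The median was 0.10. Scd1 was far ahead of the others, and its close relative Scd2 scarcely differed between the groups.

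Scd1, stearoyl-CoA desaturase, puts the first double bond into saturated fatty acids, and the resulting monounsaturated chains enter membranes and triglycerides. Its values were 8.68, 9.20 and 8.49 in mutant arrays, against 6.93, 6.90 and 7.04 in control arrays. All mutant arrays lay above all control arrays by more than 1 log2 unit, and the mean was 8.79 ± 0.37 in mutant cells and 6.96 ± 0.07 in control cells (SD, n = 3 each). The rise was 3.57-fold (log2 fold change 1.84, 95% interval 1.46 to 2.21, adjusted p = 0.000203), which ranked 21 among the increases when all 19296 genes were ordered from highest to lowest log2 fold change. In control cells the probe set was dimmer than the median of all values, where the authors' background correction compresses differences.

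Scd2, the isoform that predominates in many embryonic tissues of the mouse, had 12.60, 12.58 and 12.59 in mutant arrays and 12.48, 12.59 and 12.57 in control arrays. The groups overlapped, and the log2 fold change of 0.04 had a 95% interval of -0.08 to 0.17 (adjusted p = 0.6). The difference Scd1 minus Scd2 was 1.79 higher in mutant cells on the log2 scale. Of the 2 further desaturase genes in the same cluster, Scd3 had a log2 fold change of 0.10 and Scd4 one of -0.19, and neither passed. Both were named after their values were seen.

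Scd1 is also an abundant gene of adipocytes. The summed signal of 6 adipocyte markers was 458.7 to 493.5 in mutant arrays and 581.2 to 677.2 in control arrays. Without Pparg the other 5 summed to 298.6 to 312.4 in mutant arrays and 309.7 to 388.3 in control arrays. Of the 6, 5 lay below the median of all values, including Adipoq and Plin1, 0 passed as higher, and Fabp4 and Pparg passed as lower. The part of adipocytes in the Scd1 value was not tested.

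**Figure D3:**
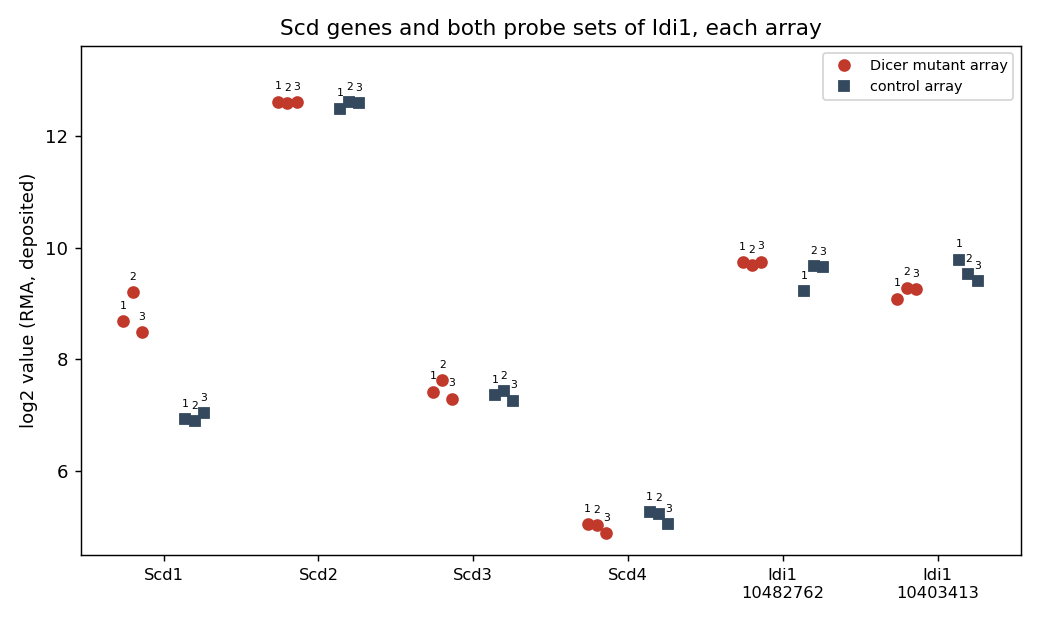
Deposited log2 values of the 4 Scd genes and of both Idi1 probe sets on each array; circles are Dicer mutant arrays, squares control arrays, and the small digits give the replicate. Scd1 sits between 8.49 and 9.20 in mutant arrays and between 6.90 and 7.04 in control arrays, while the groups of Scd2 overlap and the 2 Idi1 probe sets oppose each other.

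The carboxylase and synthase steps of fatty acid synthesis rose by small amounts. Acaca, acetyl-CoA carboxylase, which makes malonyl-CoA, had 10.19, 10.26 and 10.21 in mutant arrays, against 9.86, 9.91 and 9.87 in control arrays (log2 fold change 0.33 ± 0.05 SE, adjusted p = 0.00274). A second Acaca probe set rose likewise, by 0.35. Fasn, the synthase that builds palmitate from malonyl-CoA, had 11.36, 11.35 and 11.29 in mutant arrays, against 11.15, 11.11 and 11.16 in control arrays (0.20 ± 0.05 SE, adjusted p = 0.0273). The groups were separate for both enzymes. The call of Fasn was fragile, since it was lost without any 1 of mutant replicates 1, 2 and 3 and control replicates 1 and 2 (adjusted p = 0.108, 0.081, 0.0514, 0.0518 and 0.0758), with the log2 fold change between 0.18 and 0.22.

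Acly, which supplies cytosolic acetyl-CoA from citrate, had 11.11, 11.13 and 11.07 in mutant arrays and 11.07, 10.95 and 11.04 in control arrays. Its groups overlapped (log2 fold change 0.08, adjusted p = 0.344). Acaca minus Acly was 0.25 higher in mutant cells. Elovl6, which lengthens palmitate to stearate, the substrate of Scd1, had a log2 fold change of 0.10 (95% interval -0.04 to 0.23). The desaturases of polyunsaturated fatty acids, Fads1 and Fads2, had 0.07 and 0.10 (-0.05 to 0.20 and -0.02 to 0.21). Fads2 did not overlap between groups, with 10.98, 11.01 and 11.01 in mutant arrays and 10.91, 10.91 and 10.90 in control arrays, yet did not pass (adjusted p = 0.2).

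**Figure D4:**
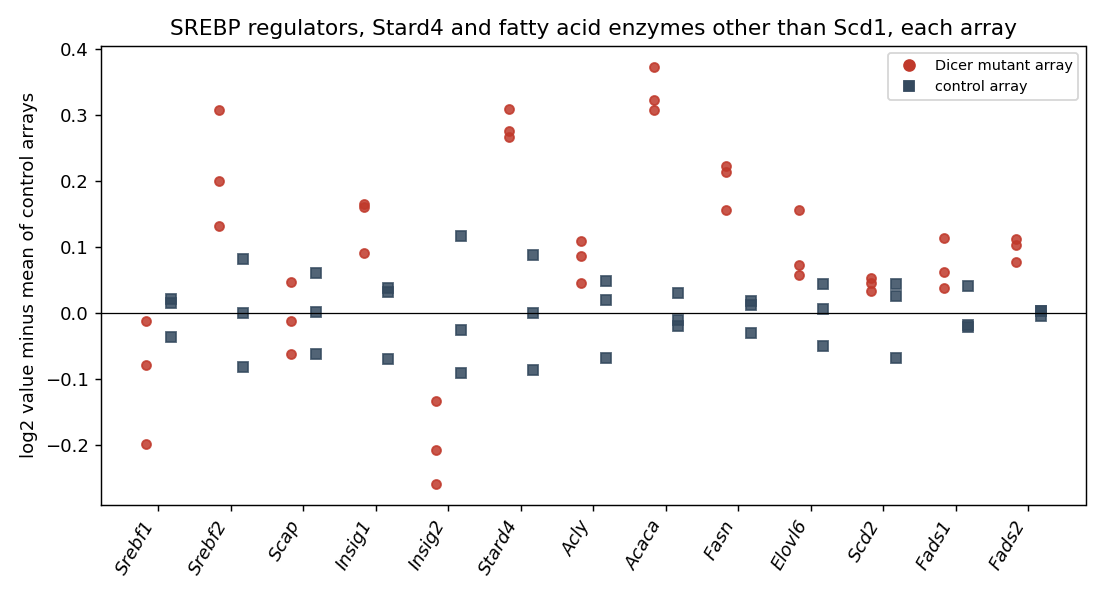
Log2 values of the 6 sterol control genes and 7 fatty acid enzymes other than Scd1, each minus the mean of its control arrays; circles are Dicer mutant arrays and squares control arrays. Stard4, Acaca and Fasn lie above their control arrays and passed the threshold, whereas Srebf2 and Insig2 are separate between groups without passing.

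Lipid genes outside the 32 were counted in 7 further lists, to be read against the 19.3% higher and 20.3% lower of all genes above the median and the 11.8% and 13.9% of all genes. Of 13 genes of sterol uptake and intracellular transport, 4 rose, 3 fell and 6 did not pass. Lrp8, a lipoprotein receptor that binds apolipoprotein E and reelin, had 8.30, 8.25 and 8.18 in mutant arrays, against 7.21, 7.21 and 7.47 in control arrays (1.93-fold, adjusted p = 0.000202). Lipa, the lysosomal lipase that frees cholesterol from its esters, rose 1.76-fold (adjusted p = 0.00117), and Npc1, which exports that cholesterol from lysosomes, rose 1.41-fold (adjusted p = 0.00037). Vldlr, the very low density lipoprotein receptor, fell by 0.32 on the log2 scale (adjusted p = 0.00531). The list's median log2 fold change was -0.06.

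Abca1, the pump that exports cholesterol to apolipoproteins and a target of the sterol sensor LXR, was the 1 gene that rose among 11 LXR and efflux genes. It had 8.27, 8.64 and 8.37 in mutant arrays, against 7.07, 6.98 and 6.99 in control arrays. These are separate by more than 1 log2 unit, a 2.66-fold rise (adjusted p = 7.30e-05). Rxra, the partner receptor of LXR, was the 1 gene that fell (log2 fold change -0.27, adjusted p = 0.0105), and 9 did not pass. Abca1 and Lipa are strongly expressed in macrophages. Of 6 macrophage and leukocyte markers all lay below the median, with a summed signal of 379.8 to 399.8 in mutant arrays and 389.5 to 452.5 in control arrays. All 6 had a negative log2 fold change, 0 passed as higher, and Ptprc passed as lower. The part of macrophages in the Abca1 and Lipa values was not tested.

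Srebf2 carries the hairpin of miR-33 within its gene in the RefSeq annotation, and miR-33 is known in mouse to repress Abca1. The mature sequence is shown because its hairpin lies within Srebf2, with capitals marking the seed (bases 2 to 8).
mmu-miR-33-5p, chr15:82198127-82198147, plus strand: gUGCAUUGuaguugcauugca
The array's own Mir33 probe set (10425721), named after its values were seen, was dim, with 3.05, 3.23 and 3.05 in mutant arrays and 3.33, 3.18 and 3.06 in control arrays. Its groups overlapped and it did not pass (adjusted p = 0.504). It does not measure the mature microRNA, and the part of miR-33 in the Abca1 value was not tested.

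Of 6 genes that sense sterols, turn over HMG-CoA reductase or cleave SREBPs, 3 rose and 0 fell. They were Erlin1, a scaffold of the degradation complex, and the ubiquitin ligases Rnf139 and Rnf145, with log2 fold changes of 0.33, 0.21 and 0.24 (adjusted p = 0.0119, 0.0243 and 0.0367). None of the 3 passed without mutant replicate 1, and 1 of the 6 genes passed without mutant replicate 2 or without control replicate 1. Other sterol and isoprenoid genes held 1 that rose and 1 that fell of 9, namely Nus1 (0.27) and Dhdds (-0.30), the subunits of the enzyme that makes dolichol. Dhdds did not pass without mutant replicate 3, control replicate 1 or control replicate 2 (adjusted p = 0.0588, 0.0549 and 0.0564).

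Of 34 other genes of fatty acid and triglyceride synthesis, 5 rose, 4 fell and 25 did not pass. Me1, the malic enzyme that supplies NADPH for lipid synthesis, rose 1.62-fold (adjusted p = 0.00124), with 8.97, 9.23 and 8.93 in mutant arrays against 8.40, 8.41 and 8.23 in control arrays. Lpin1, a phosphatidate phosphatase, rose by 0.40 on the log2 scale, whereas Mcat, of the mitochondrial fatty acid synthase, and Fads3 fell by 0.39 and 0.43. Fads3 did not pass without mutant replicate 1 or 2 (adjusted p = 0.0525 and 0.0623). The count that passed was 3 without mutant replicate 1, 4 without mutant replicate 2 and 5 without control replicate 1, against 9 with all arrays.

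Fatty acid oxidation genes, the opposing route, rose in 1 of 20, fell in 3 and did not pass in 16. Acadl, an acyl-CoA dehydrogenase, rose by 0.36, while Etfb, Echs1 and Acaa2 had log2 fold changes of -0.42, -0.36 and -0.27. Of 6 AMPK subunits, the kinase that phosphorylates and inhibits acetyl-CoA carboxylase, the catalytic Prkaa1 rose (0.27) and the regulatory Prkag1 and Prkab1 fell (-0.29 and -0.21). Prkab1 did not pass without mutant replicate 1 or 3 (adjusted p = 0.0653 and 0.0681).

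**Figure D5:**
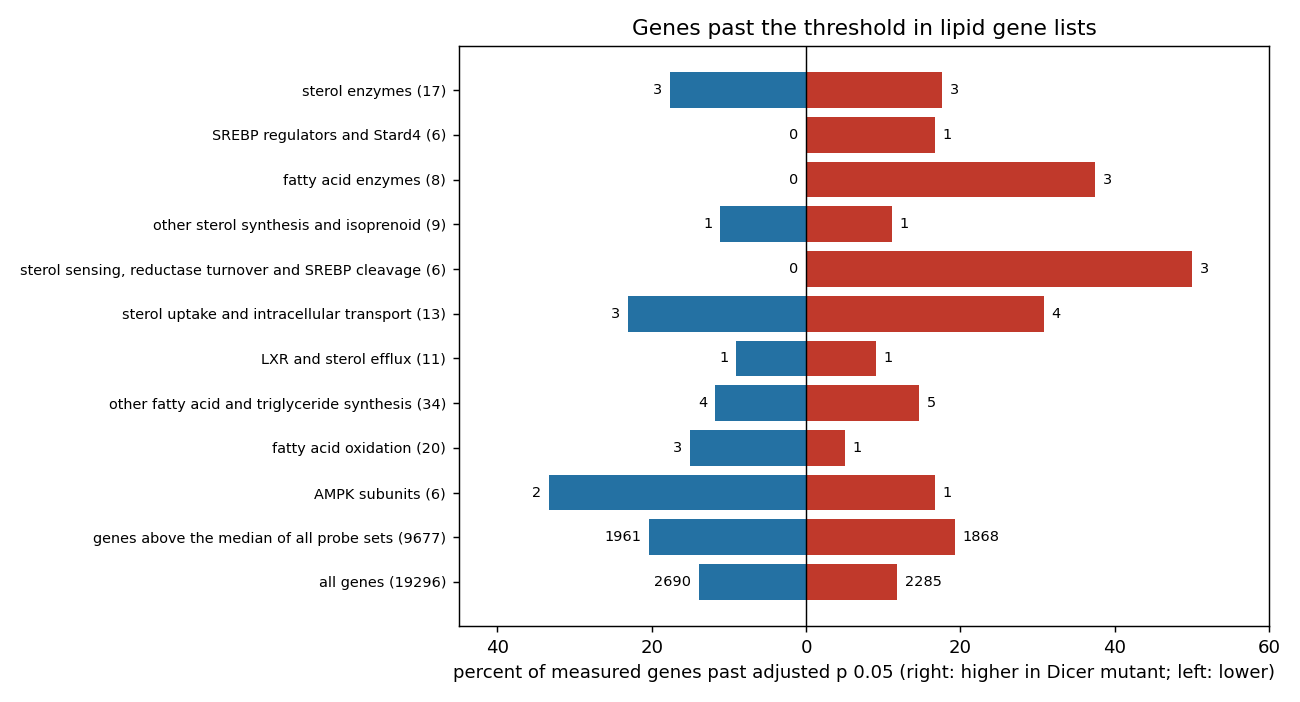
Percent of measured genes past an adjusted p of 0.05 in each lipid list, higher in Dicer mutant cells to the right and lower to the left, with the number of genes at each bar's end and the number measured in parentheses; the bottom bars give the genes above the median (19.3% higher, 20.3% lower) and all genes (11.8% and 13.9%). The fatty acid enzymes had 3 higher and 0 lower genes, and the sterol enzymes 3 in each direction.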

How the data were processed

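The authors deposited a log2 expression value for each probe set of each array, from 3 Dicer mutant and 3 control samples. The submitters' processing notes list RMA and affy, without versions, build or filters. RMA gives the arrays a common distribution, so a shift shared by most genes would be lost. The number of arrays limits the precision, and no batch is named in the labels.

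Of 23309 probe sets, the platform annotation gave 1 symbol to 20728 and several to 1174, and it left out 1407. The probe set with the highest mean over the 6 arrays stood for a gene. Genotype was the only term in limma 3.58.1 (R 4.3.3), with Benjamini-Hochberg adjustment over 19296 genes, a threshold of 0.05 and two-sided tests. The fit was tested on simulated data. No intensity filter was used. The members and lists were chosen with earlier results of these data known, from general knowledge. Named were all members, Dicer1, and of each further list up to 4 genes past the threshold by smallest p. Differences between gene pairs were chosen after the values were seen. An exact permutation over the 20 regroupings of the 6 arrays gave p = 0.1 for each pair. With 3 arrays per group this permutation cannot give a smaller p, so it could not decide whether a pair differed. Same-numbered mutant and control arrays did not deviate together (correlations of -0.19, -0.10 and -0.22 across genes), so the numbers were not taken as pairs. No 2 arrays shared more than 22 identical values. Figures were drawn with matplotlib 3.10.9. The alternatives were leaving out each array, a replicate block, median centring, quantile normalization, no dim genes, mean or single probe sets, a variance trend, array weights and other thresholds.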

Additional observations from a re-analysis of the deposited data

How the results depend on the processing

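Of 468 recomputed values of the 31 genes, 430 kept their direction and side of the threshold, 16 lost the call, 11 gained it and 11 turned sign, and 0 of the 10 called genes turned sign. All turned values belonged to genes that did not pass: Idi1 with the mean of its probe sets (-0.0733) and on its other probe set (-0.36), Nsdhl with quantile normalization (-0.0112), Ebp with array weights (-0.0009), Scap with median centring (0.0249), and, with 1 array left out, Fdps (-0.0205 to 0.0646), Nsdhl (-0.0104 to 0.0154), Ebp (-0.0901 to 0.1065) and Scap (-0.0402 to 0.0214). The cause was not tested. The number of higher sterol enzymes, 3, became 1 with the replicate block, which lost Cyp51 and Sc5d. It became 1 at an adjusted p of 0.01, and ran from 1 to 3 with 1 array left out. The median of the sterol enzymes, 0.04, ran from 0.02 (array weights) to 0.07 (median centring). Higher fatty acid enzymes, 3, became 2 with the replicate block, which lost Fasn. Higher sterol control genes, 1 of 6, became 2 with median centring, 3 with dim genes left out (fewer genes tested) and 2 with a variance trend. They became 0 at 0.01 and 2 at 0.1. Srebf2 gained the call in 4 settings and Insig1 in 1. The median of the sterol control genes became 0.10 with median centring. The lower ones, 0, became 1 (Insig2) with quantile normalization, dim genes left out, a variance trend, array weights and a threshold of 0.1, and ran from 0 to 1 with 1 array left out. The calls in the further lists moved too. Other sterol and isoprenoid genes, 2, became 1 at 0.01 and 1 to 2 with 1 array left out. The sterol sensing list, 3, became 1 with the replicate block, 0 at 0.01 and 0 to 3 with 1 array left out. LXR and efflux genes, 2, became 1 at 0.01. Other fatty acid genes, 9, became 4 with the replicate block, 14 with a variance trend, 3 at 0.01, 14 at 0.1 and 3 to 9 with 1 array left out. Fatty acid oxidation genes, 4, became 8 with dim genes left out, 8 with a variance trend and 7 at 0.1. Over all genes 4975 passed, 2790 at 0.01. Median centring moved the median of all genes by 0.03. Calls of Scd1, Acaca, Dhcr7, Mvk, Pmvk, Tm7sf2 and Dicer1 held under all alternatives run, with Scd1 between 1.63 and 1.99.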
